A study of Mus musculus with 2 samples.

Results

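The chymase locus of the mouse holds a family of serine protease genes that mast cells store as proteins in their granules. The 8 genes described here are Cma1, Cma2, Mcpt1, Mcpt2, Mcpt4, Mcpt8, Mcpt9 and Ctsg, taken by symbol from the 32285 genes of a single-cell count matrix, and all 8 had counts. Chymases cut proteins after aromatic residues. They are made as inactive precursors, activated by removal of a dipeptide by cathepsin C (Ctsc), and held in the granule on the proteoglycan serglycin (Srgn) until the cell degranulates. In mice, Cma1 (also called mast cell protease 5, which has elastase-like activity in this species) and Mcpt4 mark connective tissue mast cells, Mcpt1 and Mcpt2 mark mucosal mast cells, Mcpt8 is a basophil protease, and Ctsg encodes cathepsin G, a protease of neutrophil and mast cell granules.

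The study concerned macrophage and endothelial progenitors of the postnatal mouse aorta. Per the labels, cells of the dorsal aorta of 2 male C57BL/6J mice aged 12 weeks formed macrophage colonies (CFU-M) in methylcellulose, a semi-solid medium, over 14 days, and viable cells of those colonies were sequenced as 1 droplet library after MULTI-seq tagging, which marks the cells of a suspension with a DNA oligonucleotide. No genotype, transgene or treatment other than the culture is named, and no label tells which cells came from which animal. A second listed sample, the separate library of tags, was not analysed here. With 1 library there is no replicate check, so no difference below carries a p-value, and intervals are 95% and cover counting error only.

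Levels are given as CPM, the unique molecular identifiers (UMIs, 1 per captured RNA molecule) of a gene per 1000000 gene UMIs summed over a class of cells. They are not divided by transcript length, since the kit captures the 3′ end of each molecule. Of 34813 barcodes with 593248944 gene UMIs, 30755 cells were kept, at a median of 12728 UMIs. Cells in which Cpa3 and Cma1 made up at least 2% of gene UMIs, with little complement C1q or collagen RNA, formed the mast cell class. It held 22094 cells, or 71.8% of those kept (exact interval 71.3 to 72.3). The macrophage class, set by C1qa, C1qb and C1qc, held 1903 cells (6.19%), and the fibroblast class, set by Col1a1, Col1a2, Col3a1 and Dcn, held 3984 cells (13.0%). The other 2774 cells (9.02%) met no rule. The labels call all cells CFU-M progenitors, and the data go against that name for the largest class, in which the IgE receptor gene Fcer1a had 3748 CPM, Kit 1324 CPM and Hdc, which makes histamine, 865 CPM, while 8 macrophage markers summed to 52.7 CPM. Since Cma1 helped to set the classes, its difference between them is a description. Median depth was 11368.5 UMIs in the mast cell class, 7587 in the macrophage class and 30160.5 in the fibroblast class.

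The labels also name male animals only. At 5500 UMIs per cell, Xist, the RNA of the inactive X chromosome, was seen in 57.0% of mast cells, and RNA of 4 Y-linked genes (Ddx3y, Uty, Eif2s3y and Kdm5d) in 16.3%. Cells with at least 2 Xist UMIs and no Y-linked UMI, called Xist cells below, were 8569 of 20636 (41.5%), and cells with at least 2 Y-linked UMIs and no Xist UMI, called Y-linked cells, were 936 (4.54%). Results by cell cycle phase and by Ctsg level are therefore also given within each set for some of the genes. The other results within the mast cell class are not. The matrix further held tags named Cafum, Matrigel and Macrophages. The Cafum tag alone was called on 70.6% of the mast cell class and the Macrophages tag alone on 88.2% of the macrophage class. The Matrigel tag alone was called on 48.8% of the fibroblast class, with no tag on 26.0% and more than 1 on 18.3%. Classes and tags thus largely coincided for mast cells and macrophages, and in part for fibroblasts.

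In the GRCm38 annotation (GENCODE M21) the 8 genes lie within 161.124 kb of chromosome 14, in the order Cma1, Cma2, Mcpt1, Mcpt9, Mcpt2, Mcpt4, Mcpt8 and Ctsg, and 7 granzyme genes follow. Cma1 lies at chr14:55941451-55944675 on the minus strand, Mcpt4 at chr14:56059629-56062313 on the minus strand, Mcpt1 at chr14:56017971-56020384 on the plus strand and Ctsg at chr14:56099881-56102574 on the minus strand. Mcpt8, at chr14:56082166-56085273 on the minus strand, ends 14.6 kb from Ctsg. RefSeq promoter sequence (GRCm38.p6) was matched for 6 of the 8. The 250 bases before the start are shown for Mcpt4 and Mcpt1, the most alike pair, with 10442 and 0.535 CPM in mast cells, and for Cma1 and Ctsg, whose levels differed in opposite directions in cycling cells. Each runs 5′ to 3′ on the gene's own strand, and capitals mark matches on either strand to 4 GATA words. These are AGATAA and its variant TGATAA, which differ in the first letter, and then AGATAG and its variant TGATAG, which end differently.
Mcpt4 (chr14:56062311-56062560, minus strand): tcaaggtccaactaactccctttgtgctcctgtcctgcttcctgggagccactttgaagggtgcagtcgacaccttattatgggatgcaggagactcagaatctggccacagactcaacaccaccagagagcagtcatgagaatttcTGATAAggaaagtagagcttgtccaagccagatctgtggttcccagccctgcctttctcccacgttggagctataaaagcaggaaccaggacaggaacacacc
Mcpt1 (chr14:56017714-56017963, plus strand): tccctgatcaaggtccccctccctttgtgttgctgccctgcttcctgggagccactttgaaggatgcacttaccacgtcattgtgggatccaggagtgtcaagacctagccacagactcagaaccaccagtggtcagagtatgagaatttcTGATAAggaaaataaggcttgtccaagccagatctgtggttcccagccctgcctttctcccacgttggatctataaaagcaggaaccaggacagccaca
Cma1 (chr14:55944676-55944925, minus strand): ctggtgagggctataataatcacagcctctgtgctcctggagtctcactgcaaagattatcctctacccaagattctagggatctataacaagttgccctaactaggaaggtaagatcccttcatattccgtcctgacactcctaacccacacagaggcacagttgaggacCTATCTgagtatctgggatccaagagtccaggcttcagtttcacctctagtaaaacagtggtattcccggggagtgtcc
Ctsg (chr14:56102575-56102824, minus strand): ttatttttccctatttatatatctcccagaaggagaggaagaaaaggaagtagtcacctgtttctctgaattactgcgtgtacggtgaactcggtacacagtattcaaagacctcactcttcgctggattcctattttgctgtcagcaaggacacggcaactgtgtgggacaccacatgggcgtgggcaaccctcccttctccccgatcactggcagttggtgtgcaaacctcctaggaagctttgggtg
The Mcpt4 and Mcpt1 sequences were identical at 213 of 240 aligned bases (88.8%), above the 68.4% to 82.8% of the 14 other pairs. Both hold TGATAA, beginning at -103 and -99 from the start, and Cma1 holds 1 match at -79. Mcpt8, Mcpt9 and Ctsg hold none in this window, and 26.6% of 32817 mouse promoter windows of this length hold at least 1. The E-box CANNTG, the word bound by factors such as Mitf, occurred 4 times in Ctsg, 3 times in Mcpt8, once each in Cma1 and Mcpt9 and not in Mcpt1 or Mcpt4, and 66.2% of all windows hold it. A match is a description of the letters and not evidence of binding.

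The first comparison was between cell classes. In mast cells the family made up 3.25% of all gene UMIs, and 2 genes carried nearly all of it. Cma1 had 21637 CPM (21620 to 21654) and gave 66.6% of the family's UMIs. Mcpt4, the chymase closest in function to the single human enzyme, had 10442 CPM (10431 to 10454) and gave 32.1%. Ctsg followed at 353 CPM (351 to 355).

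The remaining genes were far lower. Cma2, a chymase-like gene, had 41.2 CPM, Mcpt2 had 13.3 CPM and the basophil protease gene Mcpt8 had 11.2 CPM. Mcpt1, whose protein is the β-chymase of mucosal mast cells, had 0.535 CPM (0.455 to 0.624) from 160 UMIs, and Mcpt9 had 0.120 CPM from 36 UMIs, each in a different cell. The order of levels was thus Cma1, Mcpt4, Ctsg, Cma2, Mcpt2, Mcpt8, Mcpt1 and Mcpt9, and no neighbours in it had overlapping counting intervals. Mcpt2 and Mcpt8 were the closest, and without the 5 highest cells of each they had 11.9 and 11.0 CPM. Cma2 and Mcpt9 are the least certain values, because their GENCODE transcripts are 98.1% identical over the aligned bases, and 28.2% of the 90-base words of Cma2 and 12.1% of those of Mcpt9 occur exactly in another gene. For Mcpt4 the share was 1.08%, for Cma1 it was 2 of 1001 words, and for the other 4 genes 0.

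**Figure D1:**
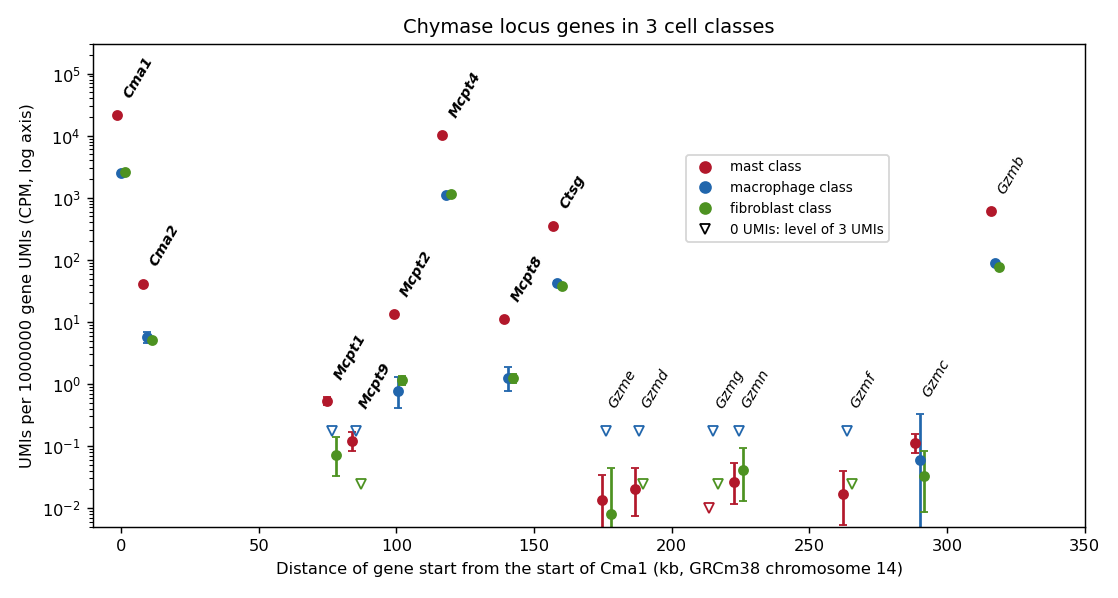
Level of each gene of the locus (vertical axis, CPM on a log scale) against the distance of its start from that of Cma1 (horizontal axis, kb), with points for the 3 cell classes, bars for exact 95% Poisson intervals and open triangles at the level of 3 UMIs where a class had 0. Mast cell points of the members (bold names) run from 21637 CPM for Cma1 to 0.120 CPM for Mcpt9, and of the 7 granzymes only Gzmb is above 1 CPM.

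Of the granzymes on the far side of Ctsg, 1 was measurable. Gzmb, which encodes the cytotoxic protease granzyme B, had 620 CPM in mast cells, between Mcpt4 and Ctsg. Gzmc had 0.110 CPM, Gzmd, Gzme, Gzmf and Gzmn had less, and Gzmg had 0 UMIs, as the plot of levels along the locus shows.

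Outside mast cells, the macrophage class had 2503 CPM of Cma1 and the fibroblast class 2590 CPM, which put mast cells 8.64-fold and 8.36-fold higher. Mcpt4 had 1119 and 1133 CPM, and mast cells were 9.33-fold and 9.22-fold higher. Ctsg had 42.7 and 37.3 CPM, and mast cells were 8.28-fold and 9.47-fold higher.

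Among the less abundant genes, mast cells were 7.28-fold higher than macrophages and 8.09-fold higher than fibroblasts for Cma2. Mcpt2 had 0.766 CPM in macrophages and 1.15 CPM in fibroblasts, and Mcpt8 had 1.24 CPM in both. Mcpt1 had 0 UMIs in the macrophage class, so mast cells were at least 3.02-fold higher when 3 UMIs are taken as the floor of that class, and 9 UMIs in the fibroblast class. Mcpt9 had 0 UMIs in both, which makes mast cells at least 4.96-fold higher than fibroblasts and gives no fold against macrophages, whose floor of 0.177 CPM is above the mast cell level. Of the members, 4 reached a mean of 10 CPM over mast cells and macrophages, and all 4 were at least 2-fold higher in mast cells, where 18.6% of the 8143 genes measured this way were. Against fibroblasts these 4 members were higher, with 17.2% of 8542 genes. Nothing is read from these counts, since Cma1 helped to set the classes and Cma2, with 5.66 and 5.09 CPM in macrophages and fibroblasts, reached the minimum only through mast cells.

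Outside mast cells, these genes stood at fractions of their mast cell level near or below those of other mast cell genes. In macrophages, Cma1, Mcpt4, Ctsg, Cma2 and Mcpt8 stood at 0.116, 0.107, 0.121, 0.137 and 0.110 of their mast cell CPM. For 7 other mast cell genes (Cpa3, Fcer1a, Ms4a2, Hdc, Tpsb2, Kit and Gata2) that fraction ran from 0.118 to 0.181. In fibroblasts the 5 members stood at 0.106 to 0.124 of their mast cell CPM and the 7 other genes at 0.113 to 0.139. Mcpt2 was lower, at 0.0575 (0.0306 to 0.0984) in macrophages and 0.0861 (0.0723 to 0.102) in fibroblasts. No member was above the range of the other mast cell genes in either class. Cma1, Mcpt4, Mcpt8 and Mcpt2 were below it in macrophages, and Mcpt4, Ctsg, Mcpt8 and Mcpt2 in fibroblasts. The low end of the range was Cpa3 in both classes, and Cpa3 and Cma1 helped to set the classes. Without Cpa3 the low end was 0.131 (Tpsb2) in macrophages and 0.122 (Ms4a2) in fibroblasts. Ctsg in macrophages and Cma1 in fibroblasts were then below it as well. Which members fell below the range thus depended on Cpa3. The part of free RNA and of doublets in these levels was not tested.

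Detection was also lower outside mast cells. At 5500 UMIs per cell, Mcpt4 was seen in 99.7% of mast cells, 90.2% of macrophages and 81.4% of fibroblasts, but the median mast cell had 55 Mcpt4 UMIs and the median cell of both other classes had 2. Ctsg was seen in 35.8% of mast cells (35.1 to 36.4), 10.4% of macrophages (8.86 to 12.1) and 9.05% of fibroblasts (8.16 to 10.0). Fcer1a, one of the other mast cell genes, was seen in 62.7% of fibroblasts and 70.4% of macrophages. Cells of each class differed widely: in macrophages the median for Cma1 was 6 UMIs and the 95th percentile 51.9, and in fibroblasts these were 4 and 50. Macrophages with the Macrophages tag alone had 1649 CPM of Cma1 and those with more than 1 tag 6897 CPM. Fibroblasts with the Matrigel tag alone had 1225 CPM, those with the Cafum tag alone 6595 CPM and those with more than 1 tag 5588 CPM. Among cells with the Cafum tag alone, mast cells were 3.26-fold higher than the 244 fibroblasts for Cma1 and 2.79-fold for Ctsg, and among cells with the Matrigel tag alone 17.1-fold and 14.0-fold. Against macrophages, the Cma1 difference was 13.2-fold with class minimums 0.75 times as high, 6.14-fold with minimums 1.5 times higher and 5.95-fold with mast cells set by Cpa3 alone.

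Among the genes that process, store or inhibit these proteases, the activator gene Ctsc had 161 CPM in mast cells, 1212 CPM in macrophages and 192 CPM in fibroblasts. Serpinb1a, an intracellular inhibitor of chymotrypsin-like and elastase-like proteases that include cathepsin G, had 1723 CPM in mast cells, 248 CPM in macrophages and 206 CPM in fibroblasts. Serpinb6a, another intracellular inhibitor, had 236, 268 and 369 CPM in these classes, and the secreted inhibitor Slpi 1.33, 11.3 and 18.1 CPM. Srgn, which encodes the granule proteoglycan core, had 5590 CPM in mast cells and 2096 CPM in macrophages.

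Since Mcpt8 and Ctsg are also genes of basophils and of neutrophil precursors, the markers of those cells were measured in the mast cell class. The 6 basophil genes summed to 651 CPM, of which Cd200r3, also made by mast cells, gave 481 CPM and the basophil protease gene Prss34 38.7 CPM. The 7 genes of neutrophils and their precursors summed to 9.68 CPM, with 7.09 CPM from Ms4a3, while Elane, which encodes neutrophil elastase, had 0 UMIs, Mpo 0.0936 CPM and Prtn3 0.324 CPM. Elane, Mpo and Prtn3 were thus at or near 0 in the class, and Ms4a3 was not.

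Within mast cells, members differed in how evenly they were spread over cells. This was measured in 15969 mast cells called in neither S nor G2/M phase and thinned to 5500 UMIs. Cma1 had a median of 133 UMIs per cell, with 73 at the 5th percentile, 217 at the 95th and 383 in the highest cell. Mcpt4 had a median of 54, with 11 at the 5th percentile, 118 at the 95th and 280 in the highest. Ctsg had a median of 0, with 7 at the 95th percentile and 41 in the highest.

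The class rule on Cpa3 and Cma1 sets the presence and the lower edge of Cma1, so its spread is a description. Mcpt4 and Ctsg were not part of the rule, and most of these cells had no Ctsg UMI. The 10% of cells with most Ctsg held 72.0% of its UMIs, against 16.4% for Cma1 and 21.6% for Mcpt4. The variance over the mean was 19.1 for Mcpt4, 14.3 for Cma1, 11.9 for Cpa3 and 7.90 for Ctsg. It was 1.05 for Cma2 and 1.17 for Mcpt8, at means of 0.214 and 0.0457 UMIs per cell, and 5.81 for Mcpt2 at 0.0663. Counting alone gives 1, but this measure depends on the mean. It therefore does not rank genes of unlike level, and a value near 1 at so low a mean does not show an even spread.

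**Figure D2:**
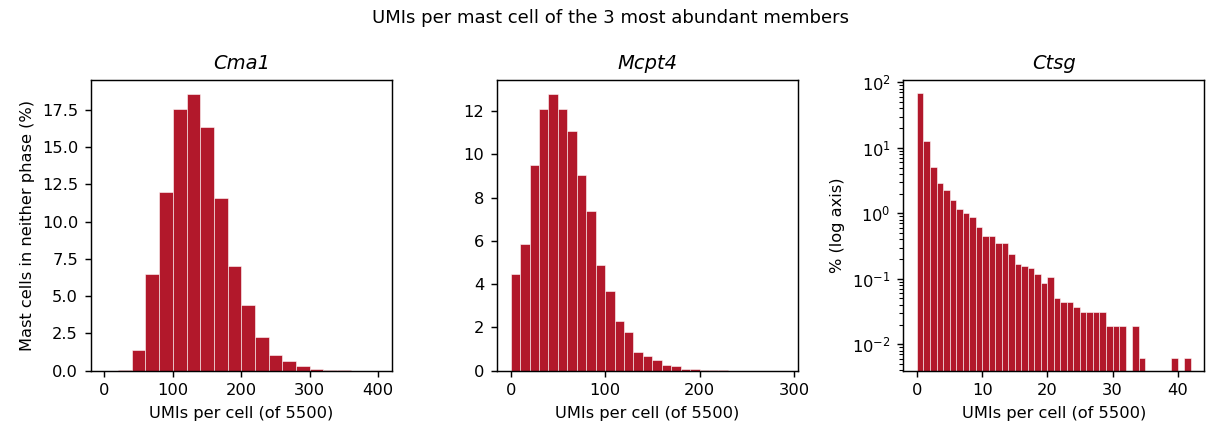
Share of mast cells in neither phase (vertical axes, percent, log scale for Ctsg) by UMIs per cell out of 5500 (horizontal axes) for Cma1, Mcpt4 and Ctsg, in steps of 20, 10 and 1 UMIs. Cma1 and Mcpt4 each form 1 broad peak, around medians of 133 and 54 UMIs, while Ctsg is highest at 0 and falls off to 41 UMIs.

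A few cells held many UMIs of the mucosal genes, while most cells with a UMI of these genes had only 1. Of 2532 mast cells with an Mcpt2 UMI before thinning, 2025 had exactly 1, yet the 5 highest held 205, 92, 61, 46 and 35 UMIs, or 11.0% of all Mcpt2. For Mcpt1 the highest cell had 30 UMIs and the next 10, and the 5 highest held 34.4% of the total. The cell with 30 Mcpt1 UMIs was also the fourth highest for Mcpt2, with 46. All 5 of the highest Mcpt2 cells also held the connective tissue type chymases, with 235 to 830 Cma1 UMIs and 67 to 617 Mcpt4 UMIs.

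For the 3 members seen in at least 25% of these cells, the genes whose pattern was most alike were found among 5509 others by Pearson's r of log counts over the 15969 cells, which share 1 library and 1 depth. For Cma1 they were Itm2b (0.456), Tpsb2 (0.434), Fcer1a (0.341), Srgn (0.338) and Cpa3 (0.326), and 4 of these 5 encode granule contents or an IgE receptor chain. For Mcpt4 they were Cma1 (0.270), Lgals1 (0.216), Crip1 (0.202), Srgn (0.191) and Cd63 (0.185). For Ctsg they were 5 ribosomal protein genes, Rps19 (0.274), Rps18 (0.247), Rpl32 (0.240), Rpl14 (0.227) and Rpl13 (0.222). These are descriptions, and values of this size in sparse counts are weak.

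The second comparison was between cycling and other mast cells. Scores built from 43 genes of S phase and 54 of G2/M placed 1637 of the thinned mast cells (7.93%) in S phase and 3030 (14.7%) in G2/M phase. Before thinning, these cells were deeper, with medians of 19635 and 18942 UMIs against 10609 in neither phase, and 3105 cells lay within 0.05 of the score limit. Ctsg was higher in cycling cells, Cma1 was lower, and Mcpt4 and Cma2 differed by less than the 25% set as the limit. Mcpt8 was also higher, but it reached the minimum of 10 CPM only through the cycling cells.

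Ctsg had 219 CPM (216 to 222) in neither phase, 455 CPM (441 to 469) in S phase and 476 CPM (466 to 487) in G2/M phase. Its ratio to neither phase was 2.08 (2.01 to 2.15) in S and 2.17 (2.12 to 2.23) in G2/M, and the share of cells with a UMI was 31.2%, 49.9% and 52.4%. Mcpt8 had 8.30 CPM in neither phase, 13.6 CPM in S and 13.7 CPM in G2/M, which are ratios of 1.63 (1.34 to 1.98) and 1.65 (1.41 to 1.92). Both genes had intervals wholly above a 25% higher level in both phases. Mcpt8 reached the minimum of 10 CPM only through the cycling cells, so its difference is a description. Ms4a3, a gene of neutrophil precursors and basophils, had 5.00 CPM in neither phase, 8.55 CPM in S and 11.3 CPM in G2/M, with ratios of 1.71 (1.33 to 2.18) and 2.27 (1.90 to 2.70). The mean of Ms4a3 over the groups was under the minimum of 10 CPM in both comparisons, so these ratios are a description. Prss34, a basophil protease gene, went the other way, from 48.7 CPM in neither phase to 28.4 CPM in S and 24.9 CPM in G2/M. Its ratios were 0.584 (0.512 to 0.662) and 0.511 (0.461 to 0.565). The part of neutrophil precursors and basophils in the differences of Ctsg and Mcpt8 was not tested.

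Cma1 had 24938 CPM in neither phase, 18382 CPM in S and 18752 CPM in G2/M, which are ratios of 0.737 and 0.752. Its direction was the same with mast cells set by Cpa3 alone (0.736 and 0.755), but with class minimums 1.5 times higher the ratios were 0.831 and 0.848, short of the 20% lower level that counts as a difference. Mcpt4 had 10513, 11228 and 10944 CPM, with ratios of 1.07 and 1.04. The ratio of Mcpt4 to neither phase was thus above 1 while that of Cma1 was below it. Under the alternatives tried, the Mcpt4 ratio in G2/M ran from 0.990 to 1.11, so its direction there was not kept.

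Cma2 had ratios of 1.07 (0.963 to 1.20) in S and 1.18 (1.09 to 1.28) in G2/M. Mcpt2 had ratios of 1.10 and 1.245 (1.08 to 1.43), and the second rests on 1 cell: without the cell with 205 Mcpt2 UMIs it was 0.952 (0.812 to 1.11). Mcpt1 had 47, 7 and 6 UMIs and Mcpt9 10, 2 and 1 UMIs in neither phase, S and G2/M, from which no direction is read. Of the 6 members that reached a mean of 10 CPM, 2 were at least 25% higher in S phase, where 26.9% of all 7641 genes were, and 1 was at least 20% lower, where 25.7% were. In G2/M phase 2 were higher and 1 lower, against 24.5% and 21.4% of 7592 genes. Nothing is read from these counts, since Mcpt8 reached the minimum only through the cycling cells. The median ratio of all genes was 0.983 in S and 0.998 in G2/M.

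**Figure D3:**
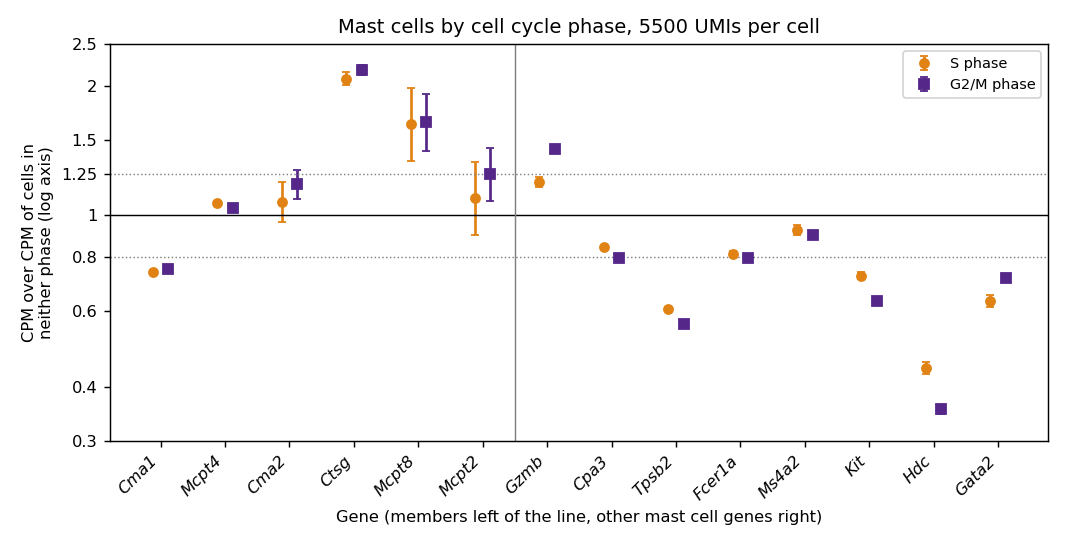
Ratio of CPM in S phase (circles) and G2/M phase (squares) to CPM in neither phase (vertical axis, log scale) for 6 members and 8 other mast cell genes (horizontal axis), with exact 95% intervals and dotted lines at 25% higher and 20% lower. Ctsg lies at 2.08 and 2.17 and Mcpt8 at 1.63 and 1.65, whereas Cma1 lies below 1. So do Cpa3, Tpsb2, Fcer1a, Ms4a2, Kit, Hdc and Gata2, and of the other mast cell genes only Gzmb lies above 1.

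Of 7 other granule genes listed, none was past the 25% limit upwards, 3 were lower in S (Tpsb2, Hdc and Prss34), and 5 were lower in G2/M with Cpa3 and Tpsab1 added. Cpa3 helped to set the class, so its ratio is a description. Of all genes measured by phase, 25.7% were lower in S and 21.4% in G2/M. Nothing is read from the counts of the lists in this paragraph. Tpsab1, a tryptase gene, lay just under the upper limit in S, with 50.0 against 40.0 CPM. Hdc had ratios of 0.442 and 0.355 and Tpsb2, also a tryptase gene, 0.606 and 0.559. Of 4 measured genes linked to connective tissue mast cells, 2 were lower in S and all 4 in G2/M, with Mrgprb1, a receptor gene, at 0.272 and 0.240. Of 6 measured regulators, 5 were lower in S and 3 in G2/M, among them Gata2 at 0.634 and 0.716 and Mitf at 0.591 and 0.624. Of the proteolytic activator and inhibitors, 3 were lower in each phase, of 5 measured in S and 6 in G2/M, and Ctsc was at 0.791 and 0.710. Gzmb, the only granzyme of the locus at a measurable level, was at 1.19 in S and at 1.42 in G2/M, above the limit.

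The cycle difference of Ctsg was also present within the sets defined by sex-linked RNA. In Xist cells Ctsg had 83.4 CPM in neither phase, 204 CPM in S and 284 CPM in G2/M, with ratios of 2.45 and 3.41. In Y-linked cells it had 205, 352 and 343 CPM, with ratios of 1.71 and 1.67. In neither phase, Ctsg was thus lower in Xist cells than in Y-linked cells, while Cma1 was at 25889 and 23080 CPM and Mcpt4 at 9847 and 10025 CPM. Mcpt8 had ratios of 2.32 and 1.87 in Xist cells and 2.21 and 2.55 in Y-linked cells, the last 2 from 7 and 15 UMIs. Cma1 had ratios of 0.807 and 0.786 in Xist cells and 0.792 and 0.799 in Y-linked cells. The first of these was short of the 20% lower level. Cma2 had 1.12 and 1.07 in Xist cells. In Y-linked cells it had 1.20 and 1.51 (1.07 to 2.08), the second past the 25% limit. Gzmb had 1.28 and 1.56 in Xist cells and 0.982 and 1.35 in Y-linked cells.

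Cells with Ctsg also differed from the rest among cells in neither phase. The 15969 cells in neither phase were grouped by their Ctsg UMIs, with 10991 at 0, 2017 at 1, 1632 at 2 to 4, 846 at 5 to 9 and 483 at 10 or more. From the first to the last group, Mcpt8 went from 5.82 CPM (5.23 to 6.46) to 27.5 CPM (21.5 to 34.6), a ratio of 4.72 (3.62 to 6.09). Gzmb went from 500.5 to 913 CPM and Mcpt2 from 11.7 to 24.8 CPM. Mcpt4 was 9991 CPM in the first group, 13174 CPM at 5 to 9 Ctsg UMIs and 12565 CPM in the last.

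Cma1 went the other way, from 25585 to 20522 CPM. Hdc went from 1249 to 453 CPM and Mrgprb1 from 277 to 15.1 CPM, a ratio of 0.0544 (0.0388 to 0.0741). Median depth before thinning went along the groups from 10067 to 16253 UMIs, and Xist cells went from 51.9% of the first group to 6.83% of the last, while Y-linked cells were 4.50% and 3.73%. Within Xist cells, Mcpt8 went from 4.91 to 33.1 CPM, the latter from 6 UMIs in 33 cells, Mcpt4 from 9598 to 12815 CPM and Cma1 from 26057 to 19967 CPM. Within Y-linked cells Mcpt4 went from 9036 to 16818 CPM, but Cma1 had 23132 CPM in the first group, 24064 CPM at 5 to 9 Ctsg UMIs and 22343 CPM in the last, of 18 cells, a ratio of 0.966 (0.925 to 1.01). The lower Cma1 level with Ctsg was thus not seen there. Mcpt8 in Y-linked cells had 0 UMIs at 5 to 9 Ctsg UMIs and 2 in the last group, with a ratio of 3.24 (0.363 to 13.6). Gzmb went from 436 to 755 CPM within Xist cells. In Y-linked cells its ratio to the first group was 0.954 (0.846 to 1.07) at 1 Ctsg UMI. It was 1.02 (0.894 to 1.15) at 2 to 4 and 1.17 (0.995 to 1.37) at 5 to 9, so each of these intervals included 1. The part of depth and of the origin of the cells in these differences was not tested. Across the cells, r between Ctsg and Xist was -0.279, between Ctsg and Hdc -0.224, and between Ctsg and Gzmb 0.190.

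**Figure D4:**
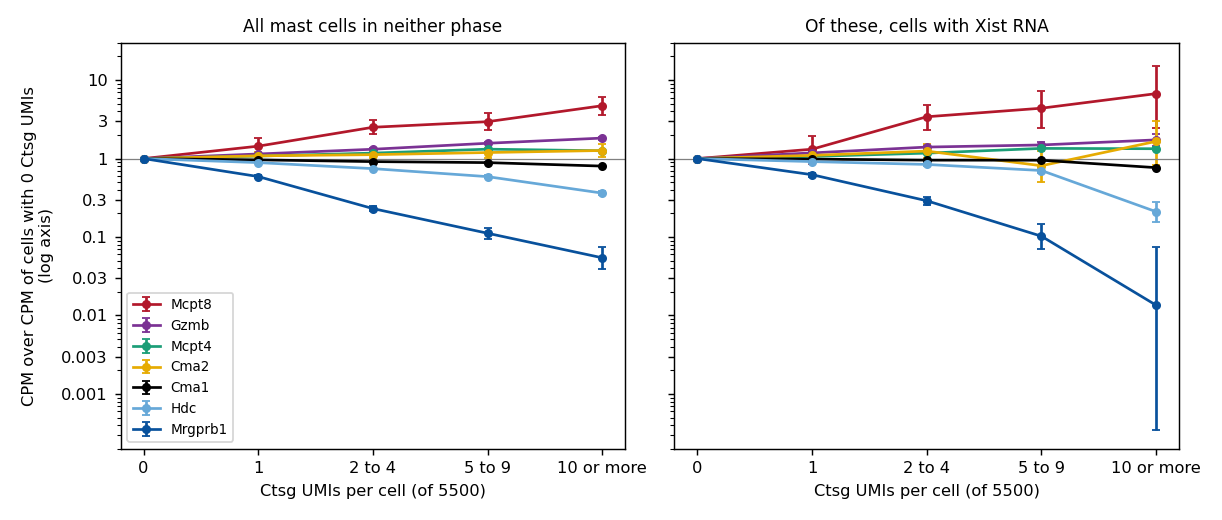
CPM of 7 genes relative to cells with 0 Ctsg UMIs (vertical axis, log scale) by Ctsg UMIs per cell out of 5500 (horizontal axis), in all mast cells in neither phase (left) and in those with Xist RNA (right), with exact 95% intervals. Mcpt8 reaches 4.72 and Mrgprb1 0.0544 on the left, and both keep their direction on the right, where the last group has 33 cells.

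Cells grouped by Mcpt4 gave a different order. With the same 15969 cells split into 4 groups of about equal size, Mcpt4 was 3621, 7906, 11686 and 18502 CPM by construction. Cma1 went from 21821 to 28181 CPM and Ctsg was 162, 178, 197 and 335 CPM. Cma2, whose transcript shares 90-base words with Mcpt4, was 35.4, 37.1, 38.7 and 44.5 CPM. By tag, mast cells with the Cafum tag alone had 371 CPM of Ctsg, those with no called tag 285 CPM, and 137 cells with the Matrigel tag alone 209 CPM, with 7713 CPM of Mcpt4 against 10527 CPM under the Cafum tag.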

How the data were processed

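The authors deposited raw UMI counts per gene and barcode, made with Cell Ranger 7.0.0 on mm10 per the submitters' processing notes. They also name STAR, R 4.1.3 and Seurat 4.1.1, without a role. How reads shared by near-identical genes or from introns were counted is not given in the sources used here. The 8 genes, the gene lists and the rules were chosen with earlier results of these data known. The genes named by likeness were the 5 of highest correlation with each member seen in at least 25% of cells, among genes seen in at least 10%.

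Filters of 500 genes, 1000 UMIs and no more than 10% mitochondrial UMIs left 33964 barcodes, and Scrublet in scanpy 1.11.5 (expected rate 27.9%, threshold 0.564) called 3245 of all barcodes as doublets, of which 3209 had passed and were removed. Mast cells had Cpa3 and Cma1 at 2% of gene UMIs or more, macrophages C1q genes at 0.2% or more and fibroblasts collagen genes and Dcn at 0.5% or more. Each class was held under 0.1% C1q or 0.2% collagen RNA of the others and, outside mast cells, under 2% Cpa3 and Cma1. Between 1.5% and 2.5% lay 2467 cells. Cells were thinned to 5500 UMIs for detection, phase and cell-to-cell comparisons, which left out 2361 shallower cells: 1458 mast cells, 480 macrophages and 128 fibroblasts, and others of no class. Phase came from scanpy scores above 0. A gene was measured where its mean over the groups compared reached 10 CPM. CPM carry exact Poisson, shares Clopper-Pearson and ratios exact conditional intervals. A class at 0 was set to a floor of 3 UMIs. The calls were tested on simulated Poisson counts with planted changes larger than the phase limit and no spread between cells. Changes near that limit were not tested. The tag rule, the sets by sex-linked RNA and the groups by Ctsg or Mcpt4 were chosen after seeing the data.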

Additional observations from a re-analysis of the deposited data

How the results depend on the processing

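The counts of members past a fold rested most on the minimum level. With no minimum CPM, 7 members were higher in mast cells than in macrophages and 8 than in fibroblasts, in place of 4 and 4, and 5 were at least 25% higher or 20% lower in S phase and 5 in G2/M phase, in place of 3 and 3. The added genes were Mcpt1, Mcpt2 and Mcpt8 against macrophages, these and Mcpt9 against fibroblasts, and Mcpt1 and Mcpt9 by phase. Within Y-linked cells, an alternative chosen after seeing the data, 5 were past these limits in G2/M, among them Mcpt2 at 4.56, which was 0.608 without the 1 cell with 205 Mcpt2 UMIs. No share of all genes is given at these settings, so nothing is read from these counts of members. Among ratios by phase, those of Ctsg, Mcpt8 and Cma1 kept their direction under the alternatives tried, whereas Mcpt1 in S ran from 0.332 to 1.61 and Mcpt9 from 0.648 to 2.01 in S and from 0.426 to 1.12 in G2/M, and Mcpt2 in G2/M from 0.854 to 4.56. Mcpt4 in G2/M ran from 0.990 to 1.11 and Mcpt1 in G2/M from 0.489 to 1.05. Cma2 in S ran from 0.985 to 1.20 and Mcpt2 in S from 0.996 to 1.66. The ratio of Ctsg ran from 1.71 to 2.45 in S and from 1.67 to 3.41 in G2/M, that of Cma1 from 0.693 to 0.831 and from 0.727 to 0.848, and that of Mcpt8 from 1.43 to 2.32 and from 1.49 to 2.55. Mast cells were 5.95-fold to 13.2-fold higher than macrophages for Cma1 and 5.90-fold to 24.8-fold for Mcpt8. They were 3.26-fold to 17.1-fold higher than fibroblasts for Cma1 and 2.79-fold to 14.0-fold for Ctsg, with both ends from cells of 1 tag. No paired analysis was possible because 1 library was analysed.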
